A study of Mus musculus with 42 samples.

Results

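Cells of the brain make nearly all of their own cholesterol, because lipoproteins of the blood do not cross the blood-brain barrier. Acetyl-CoA is built up through mevalonate to isoprenoid units, these are joined to squalene, squalene is closed to lanosterol, and lanosterol is trimmed to cholesterol. Genes of this route are switched on together by the SREBP transcription factors (genes Srebf1 and Srebf2), which the escort protein SCAP carries out of the endoplasmic reticulum when sterols are low and which the INSIG proteins hold back when sterols are high. Here 31 mouse genes of this pathway were followed in 4 hypothalamic nuclei of fed and fasted mice. They were chosen by symbol as mevalonate and sterol enzymes, SREBP control genes and cholesterol transport genes, and all 31 were found among the 37907 genes of the deposited expression table.

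The table holds 42 RNA-seq libraries, each from the RNA of 1 laser-captured nucleus. The mice were adult wild-type C57/BL6 males that either had free access to food (fed) or went 24 h without it (fasted). The nuclei were the arcuate nucleus (ARC, 5 fed and 5 fasted libraries), the ventromedial hypothalamus (VMH, 6 and 6), the dorsomedial hypothalamus (DMH, 5 and 4) and the paraventricular nucleus (PVN, 6 and 5). Each library is bulk RNA of stained sections through a whole nucleus, so neurons, glia and vessels are mixed, and fewer cells of a type cannot be told apart from less RNA per cell. The study's methods describe several nuclei cut from the same brains, and the labels do not say which libraries share a mouse.

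Values are RPKM, reads scaled to gene length and library size, and all differences below are on the log2(RPKM + 1) scale. Estimated depth was 1330000 to 13250000 reads per library, and the fasted DMH libraries (4780000 to 13250000 reads) were deeper than most of the fed ones (2940000 to 5050000 reads). By their lowest values the libraries fall into 3 sets of 10, 16 and 16, called batches here although no label names them, and the first set holds no fasted DMH library. Dissection markers stood apart in fed mice: the mean log2 level of Agrp, Npy and Pomc was 7.91 to 8.28 in ARC libraries and at most 3.66 elsewhere, and that of Sim1, Oxt and Avp was 8.77 to 9.59 in PVN libraries and at most 4.25 elsewhere. Agrp, the hunger peptide, was higher in the fasted ARC (1.61, adjusted p = 0.0613). A gene is called here when its limma p-value, adjusted over all 33579 genes that passed a filter on low values (RPKM of at least 1 in at least 4 libraries), was under 0.1. All 31 members passed that filter.

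Over the 4 nuclei 3 pathway genes were lower in fasted than in fed mice and 0 were higher. These were Hmgcs1, the HMG-CoA synthase at the entry to the route, Idi1, which isomerises the isoprenoid unit, and Msmo1, a methylsterol oxidase that trims lanosterol. Averaged over the nuclei, Hmgcs1 fell by 0.32 (SE 0.060, adjusted p = 0.00601), Idi1 fell by 0.49 (SE 0.11, adjusted p = 0.0423) and Msmo1 fell by 0.42 (SE 0.10, adjusted p = 0.0687). Of all genes tested 0.5% were called in this comparison and 0.286% were called lower. Because nuclei of the same brain entered as separate libraries, these p-values are too small to the extent that such nuclei vary together.

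The DNA just before the start of Hmgcs1 is shown because this gene had the lowest p of the 31 for fasting. Its 250 bases before the RefSeq start lie at chr13:119690101-119690350 on the plus strand (GRCm38.p6), outside annotated exons. Capitals mark the single match to TCACNCCAC, the kind of sterol regulatory element that SREBPs bind, and the 3 CCAAT boxes, which read ATTGG on this strand.
Hmgcs1: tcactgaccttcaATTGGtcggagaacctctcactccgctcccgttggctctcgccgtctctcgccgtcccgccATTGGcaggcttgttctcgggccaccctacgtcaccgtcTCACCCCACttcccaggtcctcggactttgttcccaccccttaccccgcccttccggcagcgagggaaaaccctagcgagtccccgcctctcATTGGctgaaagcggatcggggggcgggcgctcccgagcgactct
The element starts at position -137 from the start of transcription, and none of the 4 matches overlap. RefSeq promoters of 25 of the 31 members were searched on both strands (35 promoters of 250 bases). The other members were not searched, so the counts below say nothing about their promoters. The letters TCACNCCAC occurred in 1 of these 35 (2.86%), that of Hmgcs1, and in 1.05% of all 32851 promoters. CCAAT occurred in 22 of 35 (62.9%) against 33.8% of all promoters, with 2 matches for Idi1 and 3 for Msmo1. The E-box CACGTG occurred in 6 of 35 (17.1%) against 6.02% of all, in the promoters of Hsd17b7, Abca1, Insig1, Dhcr7, Sc5d and Scap. A match is only a match of letters.

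Median levels over the 42 libraries ran from 2.98 RPKM for Tm7sf2, a sterol reductase, to 181 RPKM for Apoe, the main apolipoprotein of the brain. Next to Apoe stood Fdft1, which makes squalene, at 53.6 RPKM and Hmgcs1 at 46.6 RPKM. The lowest read number estimated behind a value, with the small added count that can be read from the values, was 5.61 for Mvd, 313 for Hmgcs1 and 511 for Apoe, so the low members are measured less precisely. Some members share sequence with other genes, and mapping could have split such reads: of the 50-base stretches of Acat2 39.1% also occur in transcripts of other genes, of Fdft1 26.5%, of Fdps 26.2%, of Idi1 25.3% and of Hmgcs1 11.6%. Of the exon bases of Fdps 26.7%, of Fdft1 18.3%, of Scap 13.2% and of Hmgcs1 12.1% overlap other genes. For Tm7sf2 this was 12.1% and for Idi1 9.22%, so these values too are uncertain. For Msmo1 the shared part was 0.718%, and for Nsdhl and Stard4 it was 0%.

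Hmgcs1 lies on chromosome 13 (119690379 to 119708260, plus strand, GRCm38). In the ARC its fed values were 34.8, 40.5, 41.5, 47.9 and 39.9 RPKM and its fasted values 24.98, 31.3, 29.3, 31.5 and 29.5 RPKM. All 5 fasted ARC libraries lay below all 5 fed ones. PVN values ran from 42.7 to 54.5 RPKM (median 46.4) in fed mice and were 48.2, 31.2, 38.9, 37.4 and 33.5 RPKM in fasted mice, where only the first lay inside the fed range. DMH values were 55.8, 59.9, 46.5, 54.8 and 48.03 RPKM in fed mice and 42.4, 50.4, 45.9 and 42.9 RPKM in fasted mice, with 1 fasted library inside the fed range. In the VMH, where the gene was highest, fed libraries ran from 54.8 to 66.3 RPKM (median 62.8) and fasted ones from 32.99 to 69.01 RPKM (median 54.7), which overlap widely.

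Within single nuclei Hmgcs1 was at -0.47 in the ARC (exact permutation p = 0.00794, the smallest that 5 against 5 libraries can give) and at -0.34 in the PVN (exact permutation p = 0.0173). Neither value was called after adjustment over all genes (limma, adjusted p = 0.251 and 0.645). The values of the VMH (-0.24) and DMH (-0.22) were not called either (exact permutation p = 0.117 and 0.0635). With libraries weighted by their quality Hmgcs1 was called in the ARC (adjusted p = 0.0822) and for the PVN (adjusted p = 0.0613), and without the second fasted VMH library it was called in the ARC (adjusted p = 0.0584). Of the 11 pairs of nucleus and batch that hold both states, 10 had a lower Hmgcs1 mean in the fasted libraries. In batch 1 the ARC pair holds 1 library of each state and the PVN pair holds 1 fasted library. Averaged over nuclei, its differences in the 3 batches were -0.22, -0.36 and -0.31. Below 0 in all 3 batches stood 14 of the 31 members (9.04% of all genes), and above 0 in all 3 stood 3 (10.2% of all genes).

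Idi1 lies on chromosome 13 (8885501 to 8892451, plus strand). VMH values ran from 10.9 to 18.03 RPKM (median 15.5) in fed and from 6.404 to 12.6 RPKM (median 7.795) in fasted mice. Only 2 of 6 fasted VMH libraries reached the lowest fed one. DMH values were 8.96, 12.2, 11.1, 9.19 and 8.98 RPKM in fed and 6.68, 7.43, 8.51 and 5.58 RPKM in fasted mice, with no overlap. ARC values were 7.49, 5.28, 11.4, 5.34 and 9.16 RPKM in fed and 4.86, 2.9, 9.599, 5.22 and 4.65 RPKM in fasted mice. PVN values ran from 5.29 to 10.2 RPKM (median 8.16) in fed and were 9.04, 3.39, 8.11, 4.73 and 7.47 RPKM in fasted mice, so that the states overlapped in both of these nuclei. The differences were -0.75 in the VMH (exact permutation p = 0.00649), -0.47 in the DMH (exact permutation p = 0.00794), -0.46 in the ARC and -0.28 in the PVN, and none of the 4 was called by limma (lowest adjusted p = 0.241). Idi1 was lower in fasted libraries in 10 of the 11 pairs of nucleus and batch.

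Msmo1 lies on chromosome 8 (64718139 to 64733792, minus strand). Its PVN values ran from 9.05 to 15 RPKM (median 11.6) in fed and were 3.35, 7.74, 8.84, 8.44 and 6.71 RPKM in fasted mice, all of the latter below the lowest fed library. Those of the VMH ran from 12.5 to 21.8 RPKM (median 14.1) in fed and from 6.13 to 15.3 RPKM (median 9.66) in fasted mice, with 1 of 6 fasted libraries inside the fed range. ARC values were 7.84, 6.89, 11.7, 8.55 and 7.47 RPKM in fed and 9.603, 5.33, 5.64, 6.65 and 7.77 RPKM in fasted mice. DMH values were 14.8, 9.703, 16.1, 8.24 and 11.1 RPKM in fed and 7.295, 12.2, 9.62 and 12.5 RPKM in fasted mice, and in these last nuclei the states overlapped. The differences were -0.72 in the PVN (exact permutation p = 0.00433), -0.54 in the VMH (exact permutation p = 0.0195), -0.25 in the ARC and -0.18 in the DMH, none of them called (lowest adjusted p = 0.354).

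The Msmo1 call over the 4 nuclei was lost without fasted ARC library 2 (limma, adjusted p = 0.109) or 3 (0.1), fed ARC library 3 (0.121), fasted DMH library 1 (0.145) or 3 (0.116), or fed DMH library 1 (0.11) or 3 (0.118). It was also lost with the oligodendrocyte (adjusted p = 0.149) or astrocyte level (adjusted p = 0.14) of each library as a covariate. The Msmo1 difference itself moved little, to -0.38 and -0.397 with these covariates and to between -0.386 and -0.415 in the 7 fits without 1 library that lost the call, against -0.42 with all libraries.

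**Figure D1:**
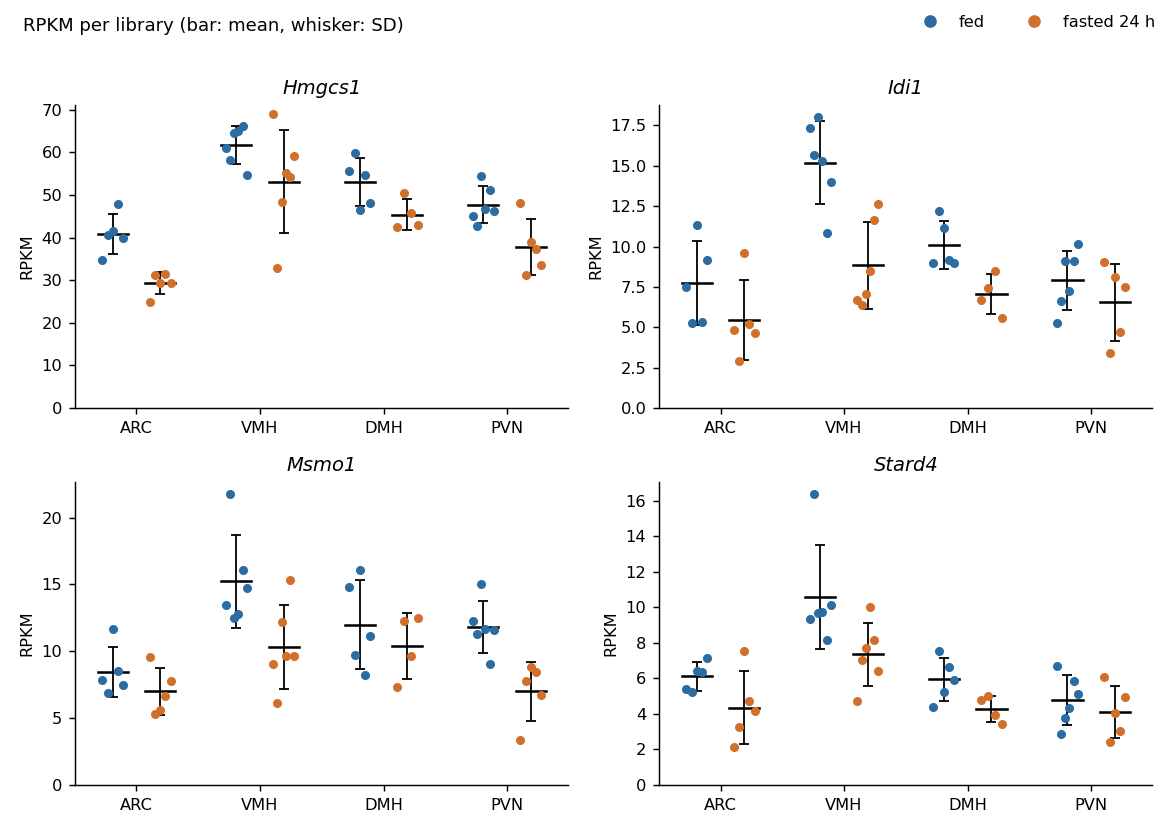
RPKM of Hmgcs1, Idi1, Msmo1 and Stard4 in each of the 42 libraries, by nucleus on the x axis, for fed and fasted mice, with the group mean as a bar and the SD as a whisker. Hmgcs1 does not overlap between states in the ARC, Idi1 does not in the DMH and Msmo1 does not in the PVN, while the VMH holds the highest fed means of all 4 genes (61.7, 15.2, 15.2 and 10.6 RPKM).

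The 19 enzymes gave 15 values below 0 over the 4 nuclei, with a median of -0.13 against 0 for all genes tested, and all 3 called members were enzymes. Of the 6 mevalonate enzymes Hmgcs1 and Idi1 were called, and the values were 0.16 for the thiolase Acat2, -0.14 for the kinase Mvk, -0.023 for the kinase Pmvk and -0.13 for the decarboxylase Mvd. Of the 5 genes listed from farnesyl diphosphate to lanosterol none was called. The values were -0.13 for Fdps, which makes farnesyl diphosphate, and -0.032 for Ggps1, on the side branch to geranylgeranyl diphosphate. They were -0.20 for Fdft1 (limma, adjusted p = 0.561), -0.10 for Sqle and 0.072 for the cyclase Lss. Of the 8 genes from lanosterol to cholesterol Msmo1 was called. The others stood at -0.37 for Nsdhl, -0.20 for the demethylase Cyp51, -0.18 for Sc5d, -0.16 for Hsd17b7, -0.052 for Dhcr7, 0.066 for Tm7sf2 and 0.18 for the isomerase Ebp.

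Nsdhl, which works with Msmo1 in removing methyl groups, lies on the X chromosome (72918557 to 72958514, plus strand). Its VMH values ran from 16.1 to 39.5 RPKM (median 22.01) in fed and from 4.92 to 19.2 RPKM (median 15.5) in fasted mice. The difference there was -0.82 (SE 0.24, exact permutation p = 0.00866), and it was not called (limma, adjusted p = 0.3). ARC values were 18.3, 9.67, 14.8, 21.4 and 9.81 RPKM in fed and 8.57, 7.97, 11.1, 8.94 and 11.4 RPKM in fasted mice. DMH values were 13.3, 12.8, 20.5, 11.01 and 16.2 RPKM in fed and 15.5, 14.7, 15.4 and 18.4 RPKM in fasted mice. PVN values ran from 10.9 to 20.1 RPKM (median 12.8) in fed and were 13.5, 7.68, 14.5, 12.1 and 11 RPKM in fasted mice. The states overlapped in all 4 nuclei, and the DMH value was above 0 (0.13) where the other 3 were below.

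**Figure D2:**
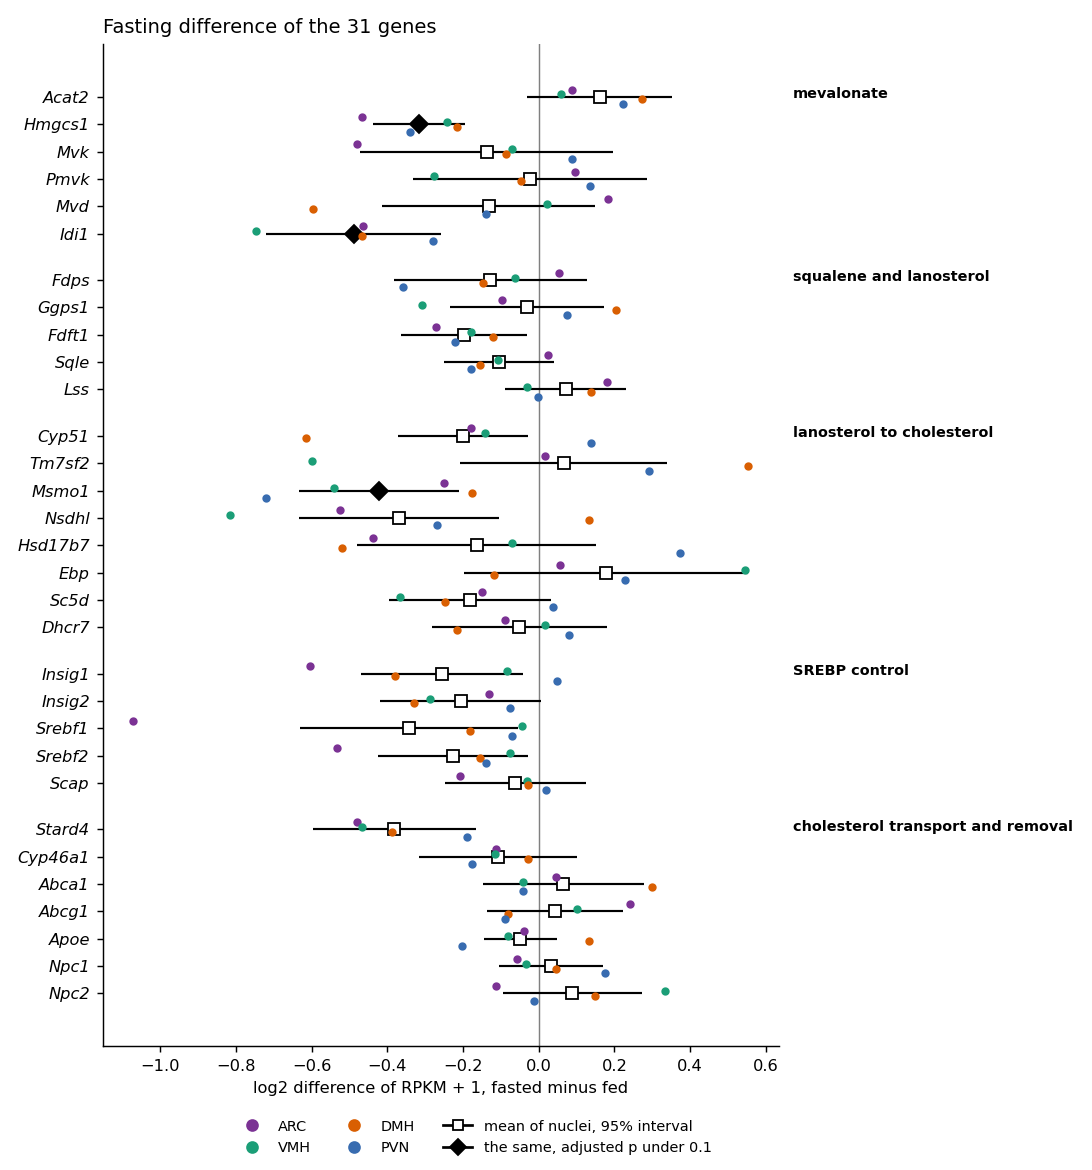
Difference between fasted and fed mice in log2(RPKM + 1) on the x axis for each of the 31 genes, grouped by role. Coloured points are the 4 nuclei, squares the mean of the nuclei with its 95% interval, and filled diamonds the 3 genes with an adjusted p under 0.1, which lie at -0.32, -0.49 and -0.42.

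The genes that control SREBP were not called, although all 5 had values below 0 over the 4 nuclei. Srebf1 stood at -0.34, Insig1 at -0.26, Srebf2 at -0.23, Insig2 at -0.21 and Scap at -0.062, with the first 3 at an unadjusted p under 0.05 (adjusted p = 0.561, 0.559 and 0.61). Their values in the ARC were lower still for several of them: Srebf1 there stood at -1.07 (SE 0.29, adjusted p = 0.277), Insig1 at -0.61 (adjusted p = 0.552) and Srebf2 at -0.53 (adjusted p = 0.613). ARC values of Srebf1 were 11.9, 3.62, 2.47, 8.13 and 10.9 RPKM in fed and 2.71, 3.36, 1.47, 3.41 and 2.09 RPKM in fasted mice. In fed mice 3 ARC libraries stood far above the rest, and the other 2 lay within or close to the fasted values. Without fed library 3, the lowest of the fed ones, Srebf1 was called in the ARC (-1.34, limma, adjusted p = 0.0858). It was not called there in any other fit, and with all libraries its exact permutation p was 0.0556.

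Outside the ARC, the Srebf1 values for the difference between states were -0.18 to -0.045. VMH values ran from 3.74 to 9.94 RPKM (median 4.27) in fed and from 4.06 to 6.54 RPKM (median 4.43) in fasted mice. DMH values were 5.01, 3.09, 6.42, 6.87 and 4.92 RPKM in fed and 4.502, 5.97, 4.31 and 3.12 RPKM in fasted mice. PVN values ran from 2.28 to 6.39 RPKM (median 4.24) in fed and were 1.88, 3.94, 6.03, 3.94 and 4.69 RPKM in fasted mice. The states overlapped in these 3 nuclei, and a difference in response between nuclei was not shown (limma, adjusted p = 1).

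Insig1, itself a target of SREBP, had ARC values of 23.3, 22.2, 35.7, 22.6 and 17.95 RPKM in fed and 20.1, 11.6, 14.4, 12.2 and 19.9 RPKM in fasted mice (exact permutation p = 0.0317). Its DMH values were 28.4, 27.4, 27.6, 27.1 and 28.5 RPKM in fed and 21.3, 21.03, 23.6 and 18.8 RPKM in fasted mice. The DMH states did not overlap (exact permutation p = 0.00794), yet the limma value of -0.38, whose spread is shared over all groups, was not called (adjusted p = 0.935). Those of the VMH ran from 21.4 to 31.9 RPKM (median 28.8) in fed and from 21.7 to 32.2 RPKM (median 25.2) in fasted mice. PVN values ran from 10.3 to 37.5 RPKM (median 31.9) in fed and were 30.4, 21.9, 29.6, 31.7 and 27.6 RPKM in fasted mice. The lowest fed PVN library, the first, stood far below the other 5, and without it Insig1 was called over the 4 nuclei (-0.32, adjusted p = 0.0419). In the other 41 fits without 1 library and under all 14 alternatives it was not called (limma, adjusted p up to 0.687 and 0.73).

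Srebf2, the SREBP most tied to cholesterol genes, had ARC values of 18.2, 13.8, 20.9, 26.2 and 19.2 RPKM in fed and 19.6, 9.68, 12.2, 11.6 and 13.8 RPKM in fasted mice (exact permutation p = 0.0476). Those of the VMH ran from 16.9 to 27.5 RPKM (median 22.7) in fed and from 10.5 to 28.98 RPKM (median 22.2) in fasted mice. DMH values were 23.4, 26.6, 22.9, 21.9 and 22.7 RPKM in fed and 26.5, 18.6, 20.4 and 19.1 RPKM in fasted mice. The states overlapped in all 4 nuclei, in the PVN with fed values from 15.2 to 25.6 RPKM (median 18.6) and fasted values of 18.2, 18.9, 12.1, 20.9 and 19.2 RPKM.

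Insig2, the other INSIG, had ARC values of 17.4, 16.9, 19.2, 12.5 and 17.2 RPKM in fed and 13.9, 13.7, 13.1, 22.2 and 13.5 RPKM in fasted mice. Its VMH values ran from 10.6 to 21.2 RPKM (median 15.8) in fed and from 9.76 to 18.4 RPKM (median 11.8) in fasted mice. Its DMH values were 17.4, 13.3, 16.04, 10.6 and 14.4 RPKM in fed and 12.4, 7.196, 10.9 and 15.2 RPKM in fasted mice. The states overlapped in each nucleus, in the PVN with fed values from 9.604 to 23.3 RPKM (median 13.9) and fasted values of 13.1, 11.4, 18.4, 17.1 and 9.07 RPKM. Over the nuclei the 95% interval of its difference was -0.42 to 0.0073.

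**Figure D3:**
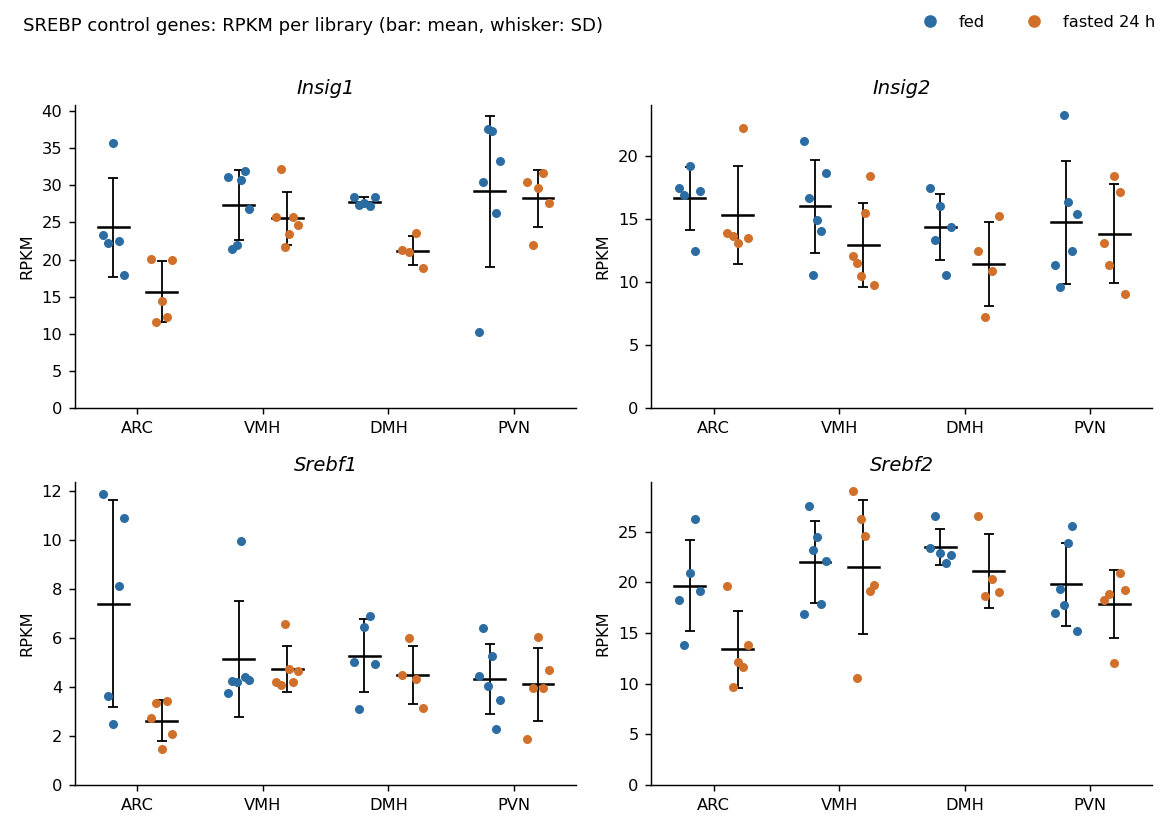
RPKM of Insig1, Insig2, Srebf1 and Srebf2 in each of the 42 libraries, by nucleus, for fed and fasted mice, with the mean as a bar and the SD as a whisker. Srebf1 has 3 fed ARC libraries between 8.13 and 11.9 RPKM, while the 5 fasted ARC libraries lie between 1.47 and 3.41 RPKM.

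Among the 7 genes of cholesterol transport and removal none was called for fasting. Stard4, a carrier of sterol inside the cell, came nearest (chromosome 18, 33199355 to 33213862, minus strand), at -0.38 over the 4 nuclei (SE 0.11, adjusted p = 0.144). Those of the VMH ran from 8.16 to 16.4 RPKM (median 9.72) in fed and from 4.75 to 10.01 RPKM (median 7.39) in fasted mice. ARC values were 5.38, 5.22, 6.44, 6.34 and 7.17 RPKM in fed and 2.12, 3.25, 7.56, 4.72 and 4.15 RPKM in fasted mice. In these nuclei 5 of 6 and 4 of 5 fasted libraries lay below the lowest fed one.

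DMH values of Stard4 were 4.41, 7.57, 5.25, 6.62 and 5.93 RPKM in fed and 4.76, 5.03, 3.92 and 3.45 RPKM in fasted mice. PVN values ran from 2.88 to 6.71 RPKM (median 4.72) in fed and were 6.06, 2.42, 4.07, 3.05 and 4.94 RPKM in fasted mice. Both nuclei overlapped between states. Stard4 was called over the nuclei without fasted ARC library 3 (adjusted p = 0.0417), fasted PVN library 1 (0.0839) or fed PVN library 2 (0.0854), and under 4 of 14 other settings (adjusted p = 0.0524 to 0.0945).

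The remaining transport genes were close to 0 over the 4 nuclei. The values were -0.11 for Cyp46a1, which turns cholesterol into the 24-hydroxycholesterol that leaves the brain, and -0.048 for Apoe. They were 0.033 and 0.089 for the lysosomal cholesterol exporters Npc1 and Npc2, and 0.065 and 0.043 for the sterol pumps Abca1 and Abcg1. The 95% interval for Apoe was -0.14 to 0.048, and that for Npc1 was -0.10 to 0.17.

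By nucleus, 0 of 31 members were called in each of the 4 single comparisons, where 0.0566% (ARC), 0.131% (VMH), 0.0238% (DMH) and 0.0715% (PVN) of all genes were called. At an unadjusted p under 0.05, 5 ARC members were lower (3.27% of all genes), 6 VMH members (3.56%), 1 DMH member (2.48%) and 3 PVN members (2.53%). By limma no member was higher at that level in any nucleus (4.23%, 3.75%, 3.99% and 3% of all genes, in the same order). The lower members of the ARC were Hmgcs1, Srebf1, Insig1, Srebf2 and Stard4, those of the VMH were Idi1, Nsdhl, Msmo1, Tm7sf2, Stard4 and Hmgcs1, that of the DMH was Cyp51, and those of the PVN were Msmo1, Hmgcs1 and Apoe. By exact permutation Tm7sf2 was higher in the fasted DMH (p = 0.0238) and Npc1 in the fasted PVN (p = 0.0476). The other members under 0.05 by that test were lower in fasted mice. Values below 0 were found for 21 ARC members (38.6% of all genes), 25 VMH members (44.4%), 22 DMH members (44.5%) and 18 PVN members (59.7%). Medians of the members were -0.11, -0.082, -0.12 and -0.041 in the same order, against 0 for all genes. The shares below 0 over all genes include genes at the level of no reads, whose differences lie close to 0. Such genes can take either sign through rounding or the mix of batches, so these shares are not a like background for the members. The same limit holds for the other shares of values below or above 0 over all genes. Genes with few reads may also lower the shares called, under an unadjusted p of 0.05 or without overlap, in single nuclei and between nuclei. Shares among genes with a mean of at least 5 RPKM were counted only over the 4 nuclei and over the fed nuclei.

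Fed and fasted values did not overlap for 1 ARC member (0.742% of all genes, either direction), 4 DMH members (1.15%), 1 PVN member (0.402%) and 0 VMH members (0.277%), and in each of these the fasted libraries were the lower ones. The 4 of the DMH were Mvd, Idi1, Cyp51 and Insig1. Cyp51 ran from 27.7 to 43.9 RPKM in fed and from 19.2 to 27.4 RPKM in fasted DMH libraries (-0.61, SE 0.18, adjusted p = 0.388). Mvd ran from 3.61 to 7.19 RPKM in fed and from 2.35 to 3.26 RPKM in fasted DMH libraries (-0.60, SE 0.30, adjusted p = 0.792). Fed and fasted DMH libraries also differ in depth. With depth as a covariate the DMH values were -0.63 for Mvd, -0.52 for Idi1, -0.63 for Cyp51 and -0.35 for Insig1, none of them called (limma, adjusted p = 0.867, 0.865, 0.478 and 1).

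Over the 4 nuclei 23 members had values below 0 (44.5% of all genes). At an unadjusted p under 0.05, 10 members were lower (3.28% of all genes) and 0 were higher (3.86%). Since genes with few reads seldom reach such a value, the same was counted over the 14467 genes with a mean of at least 5 RPKM. There 3 of 24 members were called lower (0.588% of those genes), 9 were lower at an unadjusted p under 0.05 (5.32%) and 19 had values below 0 (47.1%). Values were below 0 in every nucleus for 9 of 31 members (6.09% of all genes), namely Hmgcs1, Idi1, Fdft1, Msmo1, Insig2, Srebf1, Srebf2, Stard4 and Cyp46a1, and above 0 in every nucleus for 1, Acat2 (7.28%).

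In the test that the response differs between nuclei 0 of 31 members were called (0.00596% of all genes). At an unadjusted p under 0.05 there were 3 (4.39% of all genes), Tm7sf2, Cyp51 and Srebf1. Tm7sf2 stood at -0.60 in the VMH and at 0.55 in the DMH, where fasted libraries ran from 4.03 to 6.19 RPKM and fed ones from 2.15 to 4.17 RPKM.

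Genes of 2 lists outside the 31 were read beside them. Of 16 SREBP targets of fatty acid synthesis, 4 were called lower in fasted mice over the 4 nuclei (0.286% of all genes) and 0 higher. These were the desaturases Scd2 (-0.38, adjusted p = 1.63e-06), Scd1 (-0.37, adjusted p = 0.00601) and Fads1 (-0.32, adjusted p = 0.0581) and the fatty acid synthase Fasn (-0.25, adjusted p = 0.0587). Their list had 13 values below 0 (44.5% of all genes) and a median of -0.17. Of 52 other sterol genes, such as receptors, sterol carriers and SREBP proteases, 0 were called by limma. At an unadjusted p under 0.05 there were 10 (7.14% of all genes), 7 of them lower (3.28%). That list had 25 values below 0 and a median of 0.0059, and its lowest p-values belonged to Rxra (0.27, adjusted p = 0.226) and Fntb (-0.33, adjusted p = 0.385).

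Markers of cell types were read in the same comparison. Aqp4, the astrocyte water channel, was lower in fasted mice over the 4 nuclei (-0.59, adjusted p = 0.00131) and in the VMH (-0.94, adjusted p = 0.0477), while the other 11 of 12 astrocyte markers were not called and the list's median was -0.058. Of 10 oligodendrocyte markers 0 were called, with 7 values below 0 and a median of -0.062, and of 8 neuron markers 0 were called, with a median of -0.025. In the ARC the neuron list had 6 of 8 values below 0 and a median of -0.19, against -0.11 for the 31 members there. Its lowest value was that of Tubb3, a neuronal tubulin (-0.61, adjusted p = 0.277), and its summed level was 842 to 917 RPKM in fed and 759 to 893 RPKM in fasted ARC libraries. The part of neuron RNA in the ARC values of the members was not tested. In the VMH the oligodendrocyte list had 9 of 10 values below 0 and a median of -0.15. With the oligodendrocyte level as a covariate Hmgcs1 and Idi1 were still called, and so they were with the astrocyte level.

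More members were called between nuclei than between states. In fed mice 15 of 31 differed over the 4 nuclei (12.4% of all genes, and 12 of 24 against 19.3% among genes with a mean of at least 5 RPKM), and in fasted mice 13 of 31 did (11.9%). In fed mice the VMH was above the ARC for 12 members and below it for 1 (4.07% and 3.83% of all genes), and in fasted mice for 14 and 1 (4.27% and 4.64%). Of the 19 enzymes, 9 were higher in the VMH than in the ARC in fed mice and 9 in fasted mice, and 0 were lower in either. Between ARC and DMH 1 member was called in fed mice (Lss, 2.79% of all genes), between ARC and PVN 2 (Lss and Abca1, 4.13%) and between DMH and PVN 0 (3.42%).

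Of the enzymes, Acat2, Hmgcs1, Idi1, Fdps, Fdft1, Sqle and Lss were higher in the VMH than in the ARC in both states. The fed differences ran from 0.57 for Fdft1 to 1.003 for Fdps and the fasted ones from 0.43 for Lss to 0.89 for Fdps. Msmo1 (0.77) and Nsdhl (0.75) were called in fed mice alone, and Hsd17b7 (0.87) and Dhcr7 (0.66) in fasted mice alone, which was not tested as a difference between states. Over the 31 members the fed and the fasted difference had the same sign for 26 genes (Pearson r = 0.75, Spearman rho = 0.62 across genes, which are not independent replicates).

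Sqle, which makes squalene epoxide, had fed ARC values of 28.7, 14.7, 22.2, 23.7 and 25.1 RPKM and fed VMH values from 31.9 to 41.9 RPKM (median 37.1). All fed VMH libraries were above all fed ARC ones (0.69, SE 0.14, adjusted p = 0.000819). Fed DMH values were 29.8, 23.9, 39.4, 33.6 and 26.7 RPKM, and fed PVN values ran from 19.9 to 27.7 RPKM (median 23.97). The order of the fed means was VMH, DMH, PVN and ARC (36.8, 30.7, 23.6 and 22.9 RPKM), of which the last 2 differed by less than their SDs of 2.97 and 5.16, and VMH and DMH were not called apart. Fasted values were 21.8, 24.01, 29.7, 21.2 and 18.6 RPKM in the ARC and ran from 27.5 to 38.2 RPKM (median 34.8) in the VMH. They were 24.7, 28.9, 25.7 and 29.1 RPKM in the DMH and 18.1, 17.9, 25.3, 16.95 and 26.6 RPKM in the PVN.

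Cyp46a1, the neuronal 24-hydroxylase, was at 15.4, 13.5, 15.1, 13.1 and 13.6 RPKM in the fed ARC and from 20.7 to 41.6 RPKM (median 32.4) in the fed VMH, with no overlap (1.12, SE 0.20, adjusted p = 0.00013). Fed DMH values were 16.9, 17.4, 25.7, 16.3 and 16.4 RPKM, and fed PVN values ran from 9.77 to 20.02 RPKM (median 16.5). In fasted mice the VMH mean again stood highest, with values from 16.4 to 40.5 RPKM (median 29.9). Fasted ARC values were 14.9, 13.1, 9.43, 14.02 and 14.1 RPKM, fasted DMH values 20.99, 19.6, 11.1 and 22.3 RPKM and fasted PVN values 13.9, 18.1, 12.5, 9.27 and 15.9 RPKM. The VMH minus ARC difference was 1.12 in fasted mice as well (adjusted p = 0.000124).

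Npc2, which binds cholesterol in the lysosome, ran the other way and had the lowest p between fed nuclei (adjusted p = 1.71e-05). Its fed values were 22.7, 24.9, 36.2, 18.8 and 22.6 RPKM in the ARC and from 6.88 to 16.4 RPKM (median 11.3) in the VMH, with no overlap (-1.08, SE 0.18). The fed DMH mean lay between, with 17.5, 21.04, 14.5, 14.5 and 15.95 RPKM, and the fed PVN ran from 20.99 to 30.5 RPKM (median 23.6), near the ARC. Fasted values were 28.95, 20.2, 17.6, 26 and 21.6 RPKM in the ARC and ran from 10.4 to 24.4 RPKM (median 13.6) in the VMH. They were 20.9, 15.9, 16.6 and 20.9 RPKM in the DMH and 25.6, 21.7, 21.02, 27.95 and 23.9 RPKM in the PVN. In fasted mice the VMH range reached into that of the ARC through 1 library at 24.4 RPKM, and the difference was -0.63 (adjusted p = 0.0199).

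**Figure D4:**
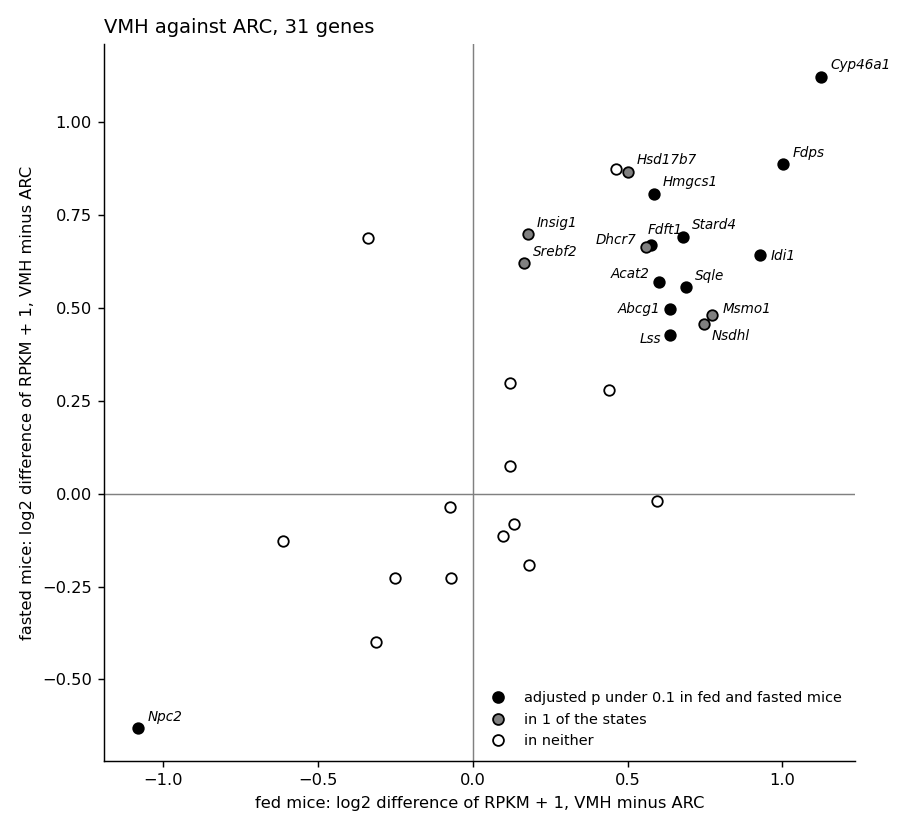
Difference between VMH and ARC in log2(RPKM + 1) for each of the 31 genes, in fed mice on the x axis and in fasted mice on the y axis. Black points have an adjusted p under 0.1 in both states, grey ones in 1 state and white ones in neither, and Cyp46a1 (1.12 in both) and Npc2 (-1.08 and -0.63) mark the ends.

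Against the PVN too the VMH was the higher one for most called members. In fed mice 9 members were lower in the PVN than in the VMH (4.88% of all genes) and 3 were higher (4.96%), which were Ebp, Npc1 and Npc2. The largest of the 9 were Stard4 (-1.01) and Cyp46a1 (-0.996). Between DMH and VMH 3 members were lower in the DMH (2.86% of all genes), namely Stard4, Cyp46a1 and Abcg1, and Npc2 was higher (2.39%). Apoe differed between fasted nuclei (adjusted p = 0.000988), with the DMH highest, from 204.4 to 240.1 RPKM, against 147.3 to 197.5 RPKM in the ARC and 138.5 to 184.3 RPKM in the PVN, and it was not called in fed mice (adjusted p = 0.203).

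The VMH libraries also held more RNA of oligodendrocytes and of neurons. In fed mice the summed level of the 10 oligodendrocyte markers was 239 to 372 RPKM in the VMH and 93.8 to 141 RPKM in the ARC, and 7 of the 10 were called higher in the VMH (median difference 1.28). The summed level of the 8 neuron markers was 1570 to 1790 RPKM in the VMH and 842 to 917 RPKM in the ARC, with 7 of 8 called higher (median 0.60). Of the 12 astrocyte markers 7 were called higher and 1 lower. With the oligodendrocyte level of each library as a covariate, 2 members were called between VMH and ARC in place of 13, Sqle (0.97, adjusted p = 0.00569) and Npc2 (-1.20, adjusted p = 0.011), and 4 in place of 15 over the 4 fed nuclei. Neither the oligodendrocyte nor the neuron sum overlapped between VMH and ARC in either state, and the neuron level was not used as a covariate, so nucleus and cell makeup cannot be told apart for any of the members.

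**Figure D5:**
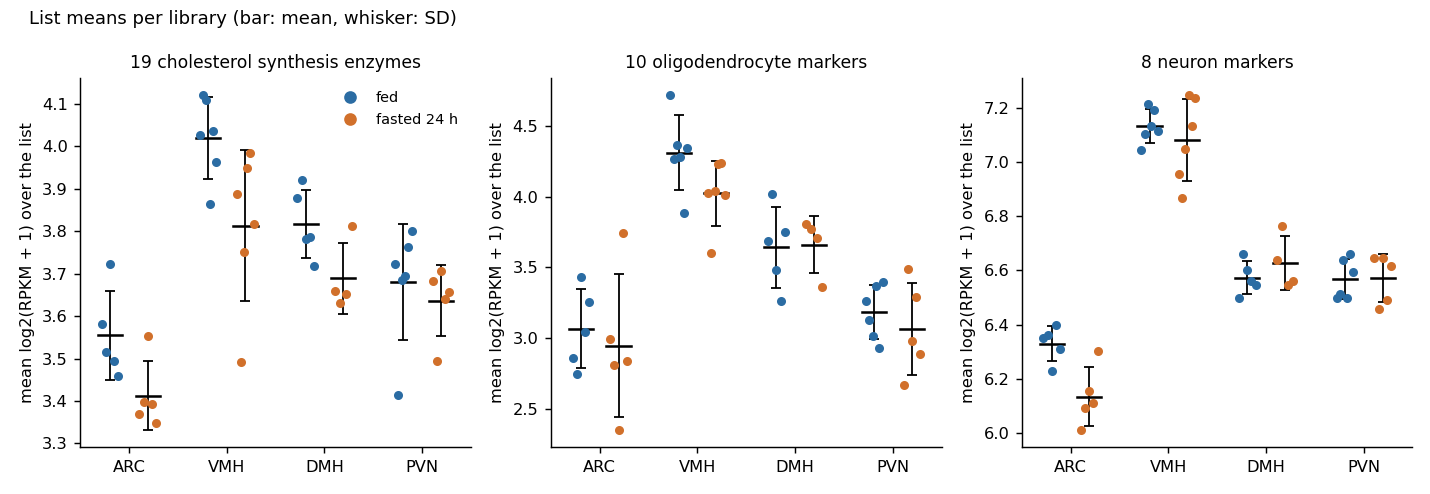
Mean log2(RPKM + 1) over 19 cholesterol synthesis enzymes, 10 oligodendrocyte markers and 8 neuron markers in each of the 42 libraries, by nucleus, for fed and fasted mice, with the mean as a bar and the SD as a whisker. All 3 list means are highest in the VMH, at 4.02, 4.31 and 7.13 in fed mice.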

How the data were processed

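RNA of 42 laser-captured nuclei was amplified from small amounts by the authors (Ovation RNA-Seq V2), sequenced as single-end reads with no use of strand stated, and mapped to GRCm38. The submitters' processing notes name CASAVA 1.7, TopHat2 2.0.11, Cufflinks 2.2.1, edgeR and limma. The deposited values are RPKM per gene, computed by the authors, who left out outlying libraries on an MDS plot. Amplification makes reads fewer molecules than they count, and no molecular identifiers were used. No value is 0: as read from the values, low ones are whole reads (98.0% to 99.1% within 0.1 read) plus an added count of 5 reads on average, with a level shared inside 3 sets of libraries. Depths (mean 4570000 reads) are estimates from these steps, and 0 columns belong to no sample.

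Values were analysed as log2(RPKM + 1), which understates changes of low genes, with limma 3.58.1 (R 4.3.3, intensity trend). The fit used 8 group means over all 42 libraries, with Benjamini-Hochberg adjustment over 33579 genes. Single members were also compared by two-sided exact permutation tests over libraries, unadjusted for 31 members in 4 nuclei. The script was tested on simulated data. Members and lists were chosen with earlier results of these data known, and support nothing by themselves. Values by library (in groups of 6, the range and median) are given for members called for fasting, the 6 of lowest p over the 4 nuclei, the 5 of lowest p between fed nuclei, and Insig1, Insig2, Srebf1 and Srebf2. Genes of other lists are named when called or when among the 2 of lowest p. Replicates are separate libraries. Where nuclei share mice and vary together, p-values of the mean over nuclei are too small. Those between nuclei and of the interaction ignore such pairing and can be too large. Shared stretches were found by matching 50-base words of GENCODE M21 transcripts. Promoters are RefSeq's (GRCm38.p6, 250 bases before the start). Windows of Idi1 and Msmo1 lie wholly or in part in annotated exons and are not printed. Alternatives were another or no pseudocount, filters, centring, quantile normalization, library weights, batch, depth, glial levels and replicate number as terms, and each library left out. The differences within batches averaged over nuclei, the contrasts in fasted mice and the background among genes of at least 5 RPKM were added after seeing the data.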

Additional observations from a re-analysis of the deposited data

Results flagged for a closer look

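A library was singled out when its value stood apart from the rest of its group by Dixon's criterion at the 95% level. This happened in 19 of 248 groups of 1 member in 1 nucleus and state, where chance gives about 12.4, that is about 1 in 20. The 19 came from 16 libraries, and no explanation was weighed.

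In the VMH, fasted library 2 had 11.1 RPKM of Mvk against 3.24 to 5.35 in the others and 4.92 RPKM of Nsdhl against 14.4 to 19.2. Fasted library 1 had 24.4 RPKM of Npc2 against 10.4 to 15.5, and fasted library 3 had 6.54 RPKM of Srebf1 against 4.06 to 4.72. Among fed VMH libraries, Dhcr7 was at 21.4 RPKM in library 1 against 8.32 to 12.04, Stard4 at 16.4 RPKM in library 2 against 8.16 to 10.1, Srebf1 at 9.94 RPKM in library 4 against 3.74 to 4.38, and Npc1 at 9.35 RPKM in library 5 against 5.94 to 6.93.

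In the DMH, fasted library 2 had 44.8 RPKM of Ggps1 against 22.9 to 26.2, 20.04 RPKM of Pmvk against 33.99 to 34.56 and 12.2 RPKM of Sc5d against 17.5 to 18.3. Fasted library 4, the deepest of all, had 74.2 RPKM of Fdft1 against 48.0 to 51.9, and fasted library 3 had 204.4 RPKM of Apoe against 237.8 to 240.1. Fed DMH library 2 had 6.20 RPKM of Lss against 4.21 to 4.56, and fed DMH library 3 had 25.7 RPKM of Cyp46a1 against 16.3 to 17.4.

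In the ARC, fasted library 1 had 16.3 RPKM of Sc5d against 13.01 to 13.62 and fasted library 4 had 22.2 RPKM of Insig2 against 13.1 to 13.9. In the PVN, fed library 2 had 8.89 RPKM of Pmvk against 36.3 to 43.1, and fasted library 5 had 6.76 RPKM of Lss against 3.72 to 4.50.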

How the results depend on the processing

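Over 14 alternatives 2 to 4 members were called over the 4 nuclei, and over 42 fits without 1 library each 2 to 4, with Hmgcs1 and Idi1 among them in every one. Library weights gave 1 called member in the ARC and 1 in the PVN, and 20 over the fasted nuclei. The oligodendrocyte level as a covariate left 4 members over the fed nuclei, 5 over the fasted nuclei and 2 between VMH and ARC. Within batches the median of the members was -0.36, -0.21 and -0.13 in the ARC (batches 1 to 3) and -0.20, -0.13 and -0.064 in the VMH. It was -0.19 and -0.037 in the DMH (batches 2 and 3, since batch 1 gave no value) and 0.13, -0.16 and -0.12 in the PVN. So it was above 0 in 1 of 11. The -0.36 rests on 1 fed and 1 fasted ARC library, and the 0.13 on 2 fed and 1 fasted PVN library. Without 1 library each, counts of called members were 0 to 1 in the ARC, 0 to 0 in the VMH, DMH and PVN and for the interaction, 11 to 15 over fed nuclei, 11 to 17 over fasted nuclei and 11 to 14 between VMH and ARC, and the medians were -0.165 to -0.106 in the ARC, -0.127 to -0.0637 in the VMH, -0.169 to -0.0763 in the DMH, -0.111 to -0.0132 in the PVN and -0.147 to -0.0929 over the 4 nuclei. No called value changed its direction. Low depth limits the members of few reads, such as Mvd and Ebp.

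No sign was found that replicate numbers pair the libraries. Fed library 2 fell in batch 2 for the ARC and in batch 1 for the VMH and PVN. The study's methods describe batches of whole brains, so if the sets are those batches, such equal numbers are different mice. Of 58 pairs of nuclei of 1 state with the same number, 0 correlated above 0.1 (median -0.0415). Of 20 fed and fasted pairs of 1 number 0 did (median -0.059), but these are different mice and could not show a shared mouse. With the replicate number as a fixed block 2 members were called over the 4 nuclei (not Msmo1, at -0.42 with adjusted p = 0.13), and as a random block within a state 4. Since the numbers do not identify mice, these fits cannot show what shared mice do to the p-values.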
